A study of Mus musculus with 27 samples.

Results

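Broad H3K4me3 domains of mouse embryonic stem cells (ESC) were taken here as the peaks of the wild-type (WT) ESC H3K4me3 list that spanned at least 5000 bp on chromosomes 1 to 19. There were 764 of them among 18911 peaks of that list on those chromosomes (4.04%), and the 19 deposited peak lists of the series held 234652 peaks. Since the domains were selected on their width in WT ESC, that width is a description and not a finding, and the other lists were not selected in this way. H3K4me3, trimethylation of lysine 4 on histone H3, marks active promoters. In many cell types its widest stretches lie over genes that define the identity of the cell. H3K27me3 is the repressive mark of Polycomb complexes, and at many developmental promoters of ESC it occurs together with H3K4me3. UTX (Kdm6a) removes H3K27 methylation and belongs to complexes of the MLL3 and MLL4 methyltransferases.

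The study mapped both marks by chromatin immunoprecipitation and sequencing in 7 cell states. V6.5 ESC, either WT (Utx+/Y) or Utx-knockout (Utx-/Y, here Utx-KO), were grown in N2B27 medium with 2i/LIF. Mouse embryonic fibroblasts (MEF) of the V19-OSKM strain, which carries the reprogramming factors Oct4, Sox2, Klf4 and c-Myc under doxycycline control, were WT or Utx-KO and were grown in 2i/LIF with or without doxycycline (dox). The remaining states were 2 aberrant iPS clones, clone 1 and clone 2, derived from Utx-KO V19-OSKM fibroblasts and described by the submitters as improperly reprogrammed. UTX itself was mapped in the WT states only, that is in ESC and in fibroblasts with and without dox.

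Each state and mark had 1 library, so no difference between states has a replicate check and none was tested. Shares of domains are given with Wilson 95% intervals, which cover counting error over regions only and treat neighbouring regions as independent. The number of reads behind each list is unknown. The H3K4me3 lists held 15643 to 27462 peaks on chromosomes 1 to 19, and their median peak width ran from 840 bp (Utx-KO MEF) to 3075 bp (the same genotype with dox). The H3K27me3 lists differed more, from 134 peaks in iPS clone 1 and 732 in clone 2 to 35928 in Utx-KO ESC, against 5663 in WT ESC. UTX lists held 5029 peaks in WT ESC, 363 in WT MEF and 3508 in WT MEF with dox. How these differences in list size and peak width bear on the shares below was tested only as far as the alternatives given beside them.

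The domains had a median width of 5971.5 bp (quartiles 5356.75 and 7020.25 bp), where the median of all WT ESC peaks was 2107 bp. Of the 764, 390 were narrower than 6000 bp, 198 reached 7000 bp and 35 reached 10000 bp. Together they covered 4.97 Mb of the 45.0 Mb under WT ESC H3K4me3 peaks, or 11.1% of the covered length. Domains were most frequent among the peaks of chromosome 17 (57 of 962, 5.93%) and chromosome 11 (87 of 1511, 5.76%), and least frequent on chromosome 12 (17 of 718, 2.37%). A score of at least 3100, near the top of the deposited scale, was given to 474 domains (62.0%) and to 5.62% of all peaks.

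Positions are in mm9, counted from 1. The domains nearest to the limit were those on chromosome 18 from 66616696 to 66621696 (5001 bp), on chromosome 16 from 30599271 to 30604273 (5003 bp) and on chromosome 2 from 164592966 to 164597968 (5003 bp). Just outside it lay peaks on chromosome 6 from 38300707 to 38305705, on chromosome 15 from 61815366 to 61820362 and on chromosome 2 from 127950097 to 127955090. Most domains stood alone, with a median distance of 1.10 Mb to the next, but 33 gaps between neighbouring domains were under 10000 bp and 13 were under 1000 bp. Another WT ESC peak of any width lay less than 500 bp away from 118 domains (15.4%), and from 6.79% of all peaks. The smallest gap was 47 bp, so some neighbouring domains are separated by gaps as short as those that divide single domains in the other lists.

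The widest domain lay on chromosome 5 from 108489245 to 108510712 (21468 bp). Its widest overlapping peak was 14654 bp in Utx-KO ESC, 8272 bp in iPS clone 2 and 3213 bp in clone 1. Among the 4 fibroblast lists it ranged from 1296 bp (Utx-KO, untreated) to 2689 bp (Utx-KO, dox). The domain was thus over 5000 bp wide in Utx-KO ESC and clone 2, and held only short peaks in clone 1 and in all 4 fibroblast lists.

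The second widest, on chromosome 12 from 87807410 to 87825702 (18293 bp), had no H3K4me3 peak in any of the 4 fibroblast lists. It was one peak of 18564 bp in iPS clone 2, a peak of 15066 bp with a second piece in Utx-KO ESC, and 7 pieces of up to 4079 bp in clone 1. The domains on chromosome 8 from 44380534 to 44393711 (13178 bp) and on chromosome 14 from 22299249 to 22311370 (12122 bp) were likewise free of H3K4me3 peaks in all 4 fibroblast lists. These 3 of the 10 widest domains were ESC domains without a counterpart in fibroblasts, with or without dox.

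The other 7 of the 10 widest domains had peaks in all fibroblast lists, and in both genotypes the widest peak was wider with dox than without. On chromosome 18 from 75524535 to 75539918 (15384 bp), WT MEF had 9 pieces of up to 5092 bp, whereas WT MEF with dox had a peak of 14389 bp and Utx-KO MEF with dox one of 14680 bp. On chromosome 11 from 97517841 to 97535841 (18001 bp), the widest peak was 881 bp in WT MEF and 864 bp in Utx-KO MEF, against 7825 and 7191 bp with dox. Across the 10 widest domains the widest Utx-KO ESC peak measured 6857 to 15066 bp.

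**Figure D1:**
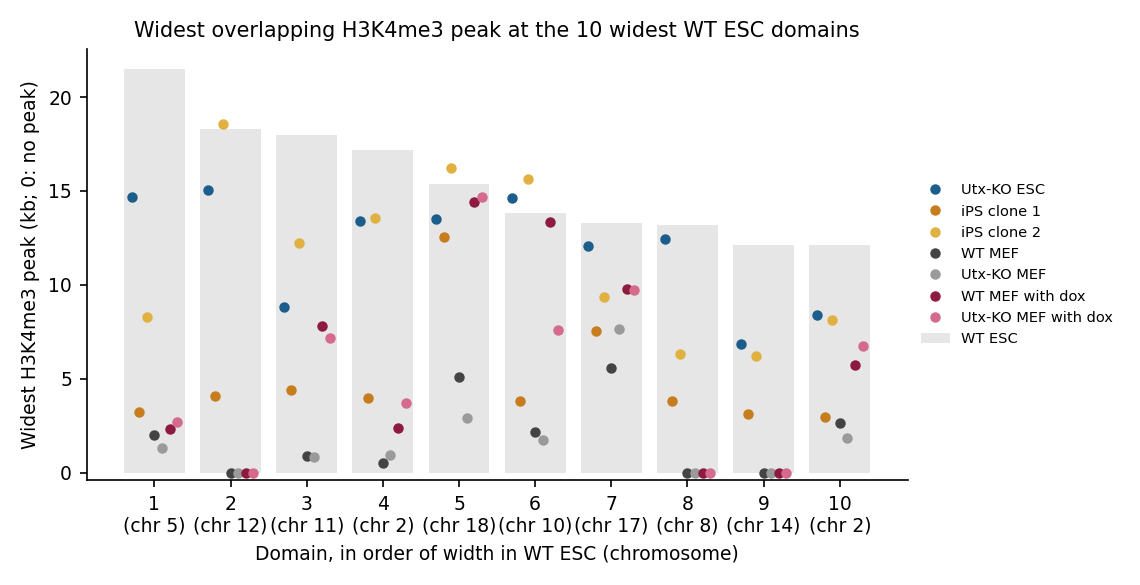
Width in kb of the widest overlapping H3K4me3 peak (points, by list) at the 10 widest WT ESC domains, ordered from left to right by their width in WT ESC (grey bars). Points at 0 mean that no peak overlapped: domains 2, 8 and 9 have all 4 fibroblast points at 0, and at the widest domain only Utx-KO ESC and iPS clone 2 pass 5 kb.

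Only 2 domains were at least 5000 bp wide in all 8 H3K4me3 lists. They lay on chromosome 17 from 71191961 to 71205244 (13284 bp) and on chromosome 19 from 5794722 to 5804826 (10105 bp). In the other 7 lists the widest peak there measured 5553 to 12078 bp at the first and 6566 to 10832 bp at the second. At the other extreme, 127 domains were that wide in WT ESC alone; their median width was 5366 bp, close to the limit. The 63 domains that were broad in 6 or more lists had a median width of 6899 bp.

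In Utx-KO ESC nearly every domain carried H3K4me3. A peak met 762 of the 764 domains (99.7%, against 87.4% of all WT ESC peaks), and the median domain was 92.1% covered (all WT ESC peaks, 87.3%). A peak of at least 5000 bp met 473 domains (61.9%, 95% interval 58.4 to 65.3; 3.37% of all WT ESC peaks). At 185 domains (24.2%) the widest Utx-KO peak was at least as wide as the WT domain. The reciprocal share was higher: of 565 Utx-KO ESC peaks that wide, 83.5% met a WT domain. When the 764 widest peaks of the Utx-KO list were called broad in place of a fixed width, 72.4% of the domains were met by one.

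Breakup was defined as 2 or more separate peaks of the other list within 1 domain, so a domain could be both broken up and broad. A longer region has more room to meet 2 peaks, and the domains were longer than most WT ESC peaks (medians 5971.5 and 2107 bp). Breakup was not compared at equal length, so the shares over all WT ESC peaks given beside it, here and below, do not allow for width. In Utx-KO ESC breakup affected 170 domains (22.3%, interval 19.4 to 25.3; 3.20% of all WT ESC peaks). Of these, 110 met only peaks narrower than 5000 bp, and the others also met a broad one. The largest number of pieces was 5, at the chromosome 11 domain of 18001 bp named above, where the widest piece measured 8818 bp. A smaller example lay on chromosome 11 from 69227558 to 69234414 (6857 bp), with 4 pieces. The reverse comparison gave 12.9% of broad Utx-KO ESC peaks broken up in WT ESC. Most breaks were short. The median of 188 gaps was 226 bp, and joining peaks less than 500 bp apart left 49 domains broken up (6.41%) and 552 broad (72.3%). Coverage was lower at the domain ends than in the middle: with each domain divided into 10 equal bins, the outer 2 bins were 65.4% covered on average and the middle 2 bins 98.2%.

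The iPS clones, both Utx-KO, carried H3K4me3 at almost all domains as well. A peak met 754 domains in clone 1 (98.7%, against 84.6% of all WT ESC peaks) and 760 in clone 2 (99.5%, against 92.6%). They differed in width. A peak of at least 5000 bp met 78 domains in clone 1 (10.2%, interval 8.26 to 12.6; 0.497% of all WT ESC peaks) and 451 in clone 2 (59.0%, interval 55.5 to 62.5; 4.60%). The mean over the clones was 34.6% ± 34.5 (SD, n = 2), so the spread between clones was as large as the mean. All 78 domains broad in clone 1 were also broad in clone 2. The clone 2 list held more peaks that wide (720 against 89), and this nesting was not counted over all WT ESC peaks.

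In clone 1, 457 domains (59.8%) were broken up, where 12.1% of all WT ESC peaks met 2 or more clone 1 peaks, and in clone 2, 182 (23.8%, against 3.10%). Their mean was 41.8% ± 25.5 (SD, n = 2). The median covered share was 67.7% in clone 1 and 91.2% in clone 2, slightly below the medians over all WT ESC peaks (71.7% and 92.3%). Part of the gap goes with the lists as a whole: only 89 clone 1 peaks reached 5000 bp, against 720 in clone 2. Ranked by width instead, the 764 widest peaks of each clone met 46.5% of the domains in clone 1 and 60.9% in clone 2. After joining gaps under 500 bp, 23.4% of the domains were broad in clone 1 and 68.1% in clone 2.

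Just 4 domains had no H3K4me3 peak in either clone. The widest lay on chromosome 3 from 135211163 to 135220708 (9546 bp) and had a peak of 6460 bp in Utx-KO ESC. The others lay on chromosome 1 from 21242620 to 21248247 (5628 bp), on chromosome 8 from 80589267 to 80594592 (5326 bp) and on chromosome 16 from 22396931 to 22402106 (5176 bp). The last had the lowest score of all domains, 137.73, and no H3K4me3 peak in any other list. It lies beside the domain on chromosome 16 from 22403122 to 22413554 (10433 bp).

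In untreated fibroblasts most domains carried H3K4me3, but in narrow peaks. A WT MEF peak met 666 domains (87.2%, against 60.4% of all WT ESC peaks), yet one of at least 5000 bp met 18 (2.36%, interval 1.50 to 3.69; 0.222% of all). Breakup was common, with 2 or more WT MEF peaks at 408 domains (53.4%, interval 49.9 to 56.9; 17.8% of all WT ESC peaks). In Utx-KO MEF a peak met 663 domains (86.8%, against 61.6%), a broad one met 7 (0.916%, interval 0.445 to 1.88; 0.127%), and 497 were broken up (65.1%, interval 61.6 to 68.4; 27.8%). At least 3 pieces lay on 130 domains in WT MEF and on 253 in Utx-KO MEF.

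The median domain was 43.6% covered in WT MEF and 41.5% in Utx-KO MEF, close to the medians over all WT ESC peaks (42.8% and 40.0%). The widest piece had a median of 1940 bp in WT MEF and 1593.5 bp in Utx-KO MEF. Gaps were again short, with medians of 200.5 and 175 bp. Joining those under 500 bp left 15.7% of the domains broken up in WT MEF and 18.8% in Utx-KO MEF, and the broad share was then 8.12% and 7.07%. When the 764 widest peaks of each list were called broad, 22.5% of the domains were met in WT MEF and 18.8% in Utx-KO MEF.

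With dox, most domains were single peaks. In WT MEF with dox a peak met 702 domains (91.9%, against 76.0% of all WT ESC peaks), a broad one met 306 (40.1%, interval 36.6 to 43.6; 6.74%), and 45 were broken up (5.89%, against 0.619%). In Utx-KO MEF with dox a peak met 684 (89.5%, against 71.3%), a broad one 365 (47.8%, interval 44.3 to 51.3; 8.57%), and 23 were broken up (3.01%, against 0.201%). The median domain was 75.1% covered in the WT and 77.5% in the Utx-KO dox list, below the medians over all WT ESC peaks (92.5% and 97.6%). Of the 408 domains broken up in WT MEF, 379 (92.9%) met 1 peak with dox, and for Utx-KO MEF it was 482 of 497 (97.0%). Broad peaks with dox met 213 of the 399 WT domains (53.4%) and 322 of the 492 Utx-KO domains (65.4%) that had been covered by narrow pieces alone. These shares by class without dox were not taken over all WT ESC peaks. Of those, 2 or more dox peaks met only 0.619% (WT) and 0.201% (Utx-KO). They are short (median 2107 bp) beside the dox peaks (medians 2387 bp in WT and 3075 bp in Utx-KO), which leaves little room for 2. Whether the change from pieces to single peaks was particular to the domains was thus not tested.

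**Figure D2:**
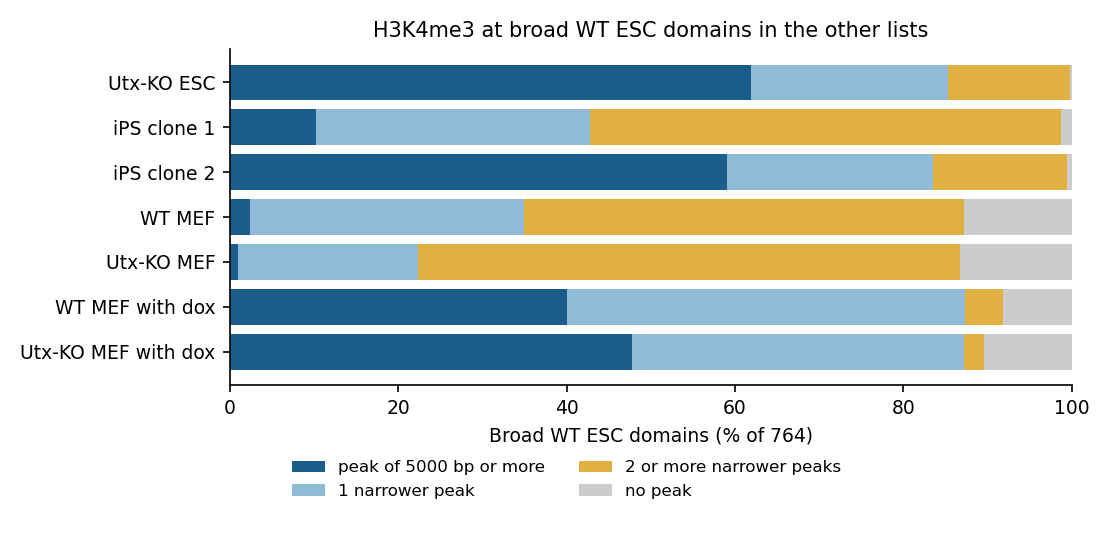
Share of the 764 broad WT ESC domains (x axis, %) that met a peak of at least 5000 bp, 1 narrower peak, 2 or more narrower peaks or no H3K4me3 peak, for each of the other 7 lists (bars). Narrow pieces make up the largest class in iPS clone 1 and both untreated fibroblast lists, and broad peaks the largest in Utx-KO ESC, clone 2 and Utx-KO MEF with dox.

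The dox lists were wide throughout, and not only at these domains. Peaks of at least 5000 bp numbered 1102 in WT MEF with dox and 1424 in Utx-KO MEF with dox, against 41 and 26 without dox. Of those in the dox lists, 27.6% and 25.6% met a broad WT ESC domain. With the 764 widest peaks of each list in place of the fixed width, the domains met were 30.4% in WT and 31.5% in Utx-KO cells with dox. On that measure the treated and untreated fibroblast lists lay closer together, and all 4 stayed below the iPS clones and Utx-KO ESC. Whether cell state or library quality set the widths cannot be told apart with 1 library per state.

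Broad peaks met 265 domains in both dox lists, 41 only in the WT list and 100 only in the Utx-KO list. Of 347 domains broad in both Utx-KO ESC and iPS clone 2, 179 were broad in both dox lists and 106 in neither. These counts over several lists were not taken over all WT ESC peaks. In all 7 other lists coverage was highest in the middle of the domains. The outer and middle 2 bins were covered by 15.4% and 56.4% in WT MEF, by 48.2% and 81.3% in WT MEF with dox, and by 13.4% and 52.9% in Utx-KO MEF. They were covered by 51.9% and 80.7% in Utx-KO MEF with dox, by 29.8% and 82.6% in clone 1, and by 63.1% and 95.9% in clone 2. Lower coverage at the ends is built into regions whose ends were set by the WT ESC list.

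**Figure D3:**
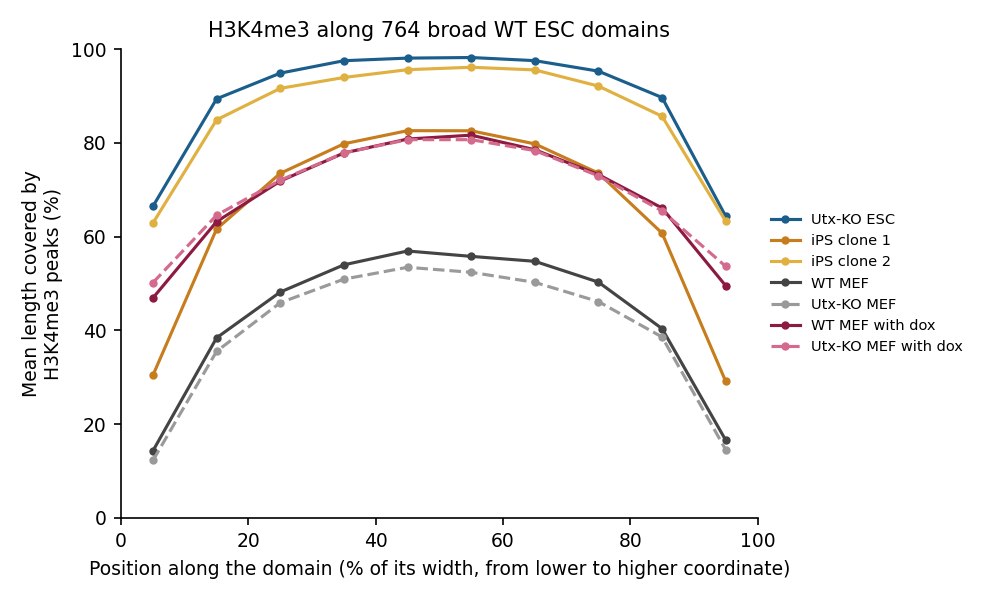
Mean share of length covered by H3K4me3 peaks (y axis, %) in 10 equal bins of the 764 broad WT ESC domains (x axis, % of domain width), 1 line for each of the other 7 lists. All lines are highest in the middle; Utx-KO ESC and iPS clone 2 pass 95% there, and the untreated fibroblast lists stay below 60%.

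Very few domains overlapped H3K27me3 in ESC. In WT ESC an H3K27me3 peak met 6 domains (0.785%, interval 0.360 to 1.70), where it met 7.20% of all WT ESC H3K4me3 peaks and 2.82% of those 4000 to 5000 bp wide. In Utx-KO ESC it met 24 domains (3.14%, interval 2.12 to 4.63), against 24.6% of all peaks and 9.18% of those 4000 to 5000 bp wide. A wide region has more room to meet a peak by position alone, so the share was also taken over the central 1000 bp. There it was 0.262% of domains and 5.42% of all peaks in WT ESC, and 1.57% and 21.9% in Utx-KO ESC. Of the overlapping domains, 1 of 6 in WT ESC and 6 of 24 in Utx-KO ESC met H3K27me3 only within 1000 bp of an end.

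All 6 domains with H3K27me3 in WT ESC also had it in Utx-KO ESC, and 18 had it in Utx-KO ESC alone. These joint counts were not taken over all WT ESC peaks, so they do not show a trait of the domains. The Utx-KO list is over 6 times as long as the WT list (35928 and 5663 peaks). Restricted to as many of its highest-scoring peaks as the WT list holds, it met 1.57% of domains and 13.8% of all H3K4me3 peaks. The difference between domains and all peaks was thus present in both ESC lists, and the difference between the 2 genotypes rests on 1 library each.

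The widest of the 6 domains lay on chromosome 11 from 69612887 to 69619675 (6789 bp), where H3K27me3 covered 1476 bp in WT ESC and 3040 bp in Utx-KO ESC. The domain on chromosome 14 from 47004766 to 47010827 (6062 bp) had the highest WT score of the 5 widest, 153.82, with 1514 bp covered in WT and 3382 bp in Utx-KO ESC. The next 3 lay on chromosome 5 (138223582 to 138229767), chromosome 7 (90013705 to 90019431) and chromosome 2 (174151869 to 174157329), with WT scores of 60.86 to 72.43 and Utx-KO scores of 537.53 to 741.26. At each of these 5 domains H3K27me3 lay over fewer bases in WT than in Utx-KO ESC. The 2 lists differed in the same direction as a whole. Their median H3K27me3 peak width was 941 bp in WT and 1599 bp in Utx-KO ESC, and 17.7% and 50.3% of peaks scored at least 100.

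At the 18 domains with H3K27me3 in Utx-KO ESC alone, it covered 6.69 to 99.6% of the domain in that list (median 29.5%). The covered part was under 10% at 4 domains, 10 to 50% at 10 and over 50% at 4. Among the 5 widest, the one on chromosome 13 from 40823093 to 40830293 (7201 bp) was covered nearly from end to end, with 7088 bp covered in Utx-KO ESC, 4970 bp in WT MEF, and 2869 (untreated) and 2670 bp (dox) in Utx-KO fibroblasts. Another 3 of the 5 widest had 485 to 551 bp covered: 2 on chromosome 13, from 112274342 to 112281933 and from 63662851 to 63670096, and 1 on chromosome 1, from 77506769 to 77513586. The widest of them, on chromosome 2 from 115885101 to 115893863 (8763 bp), had 774 bp at a score of 52.34. A narrower domain on chromosome 16 from 91224524 to 91229878 (5355 bp), singled out after its values were seen, had 5331 bp covered in Utx-KO ESC.

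H3K27me3 was also listed at few domains in fibroblasts. It met 29 domains (3.80%, interval 2.66 to 5.40) in WT MEF, against 5.07% of all WT ESC H3K4me3 peaks, and in Utx-KO MEF also 29 (3.80%, against 4.96%). With dox it met 29 domains (3.80%, against 8.88%) in Utx-KO cells and 3 (0.393%, against 0.814%) in WT cells. In the central 1000 bp the shares of domains and of all peaks were 1.96% and 3.56% in WT MEF, 2.49% and 3.70% in Utx-KO MEF, and 2.75% and 8.39% in Utx-KO fibroblasts with dox. In WT fibroblasts with dox they were 0.131% and 0.492%. That list held only 932 peaks, 2.36% of them with a score of 100 or more. WT MEF and Utx-KO MEF shared 22 of their 29 domains, a count that was not taken over all WT ESC peaks. Neither iPS clone had an H3K27me3 peak on any domain (0 of 764), and their lists met 0.0529% (clone 1) and 0.111% (clone 2) of all WT ESC H3K4me3 peaks, so both are too short to show an absence at these domains. In all, 707 domains had no H3K27me3 peak in any of the 8 lists, 24 had one in an ESC list, 43 in a fibroblast list and 10 in both. These combined counts were not taken over all WT ESC peaks together. Among WT ESC peaks with H3K4me3 in an untreated fibroblast list, any fibroblast H3K27me3 list met 7.33%, and it met 4.17% of such domains. Among those without fibroblast H3K4me3 the shares were 17.4% of peaks and 16.3% of domains.

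UTX in WT ESC met 176 domains (23.0%, interval 20.2 to 26.2), where it met 6.76% of all WT ESC H3K4me3 peaks and 12.8% of those 4000 to 5000 bp wide. The share was 18.4% of domains 5000 to 7000 bp wide, 33.1% at 7000 to 10000 bp and 51.4% of the 35 widest. When only the central 1000 bp were counted, so that every region had the same length, UTX met 4.97% of domains and 4.05% of all peaks. Per unit of length, UTX peaks covered 28.3 bp per kb of domain, 17.1 bp per kb of all H3K4me3 peaks and 15.4 bp per kb of flanks as long as the domains.

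**Figure D4:**
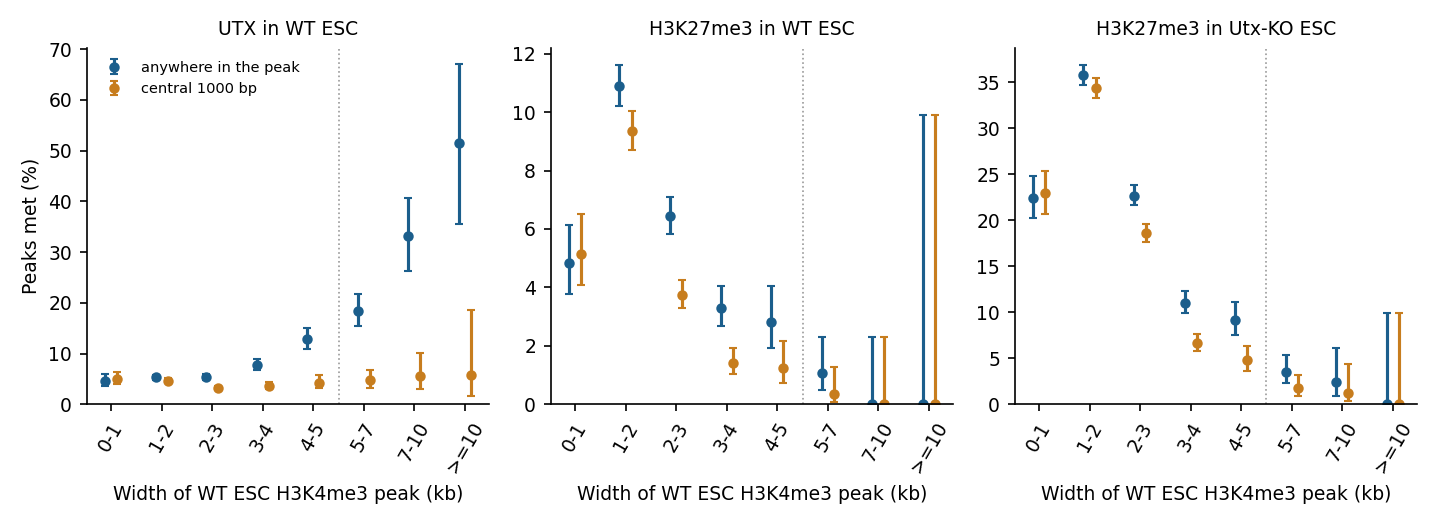
Share of WT ESC H3K4me3 peaks (y axes, %; bars, Wilson 95% intervals) that met UTX in WT ESC, H3K27me3 in WT ESC or H3K27me3 in Utx-KO ESC, by peak width in kb (x axes), over the whole peak or its central 1000 bp; the dotted line marks 5 kb. UTX over the whole peak reaches 51.4% in the widest class while its central share stays between 3.18 and 5.71%, and both H3K27me3 shares are highest at 1 to 2 kb.

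The domains held 202 of the 5029 UTX peaks of WT ESC (4.02%), 1 each on 154 domains, 2 on 17 and 3 on 5. UTX peaks on domains had a median score of 80.2 and elsewhere 73.4, and 37.1% against 26.1% scored at least 100. Counting only peaks with such a score, 9.29% of domains and 2.25% of all H3K4me3 peaks had UTX. Of 203 pairs of a UTX peak and a domain, the midpoint of the UTX peak lay in the middle 50% of the domain's length for 82, nearer to an end for 101 and beyond the end for 20.

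The 5 domains with 3 UTX peaks included the chromosome 16 domain of 10433 bp named above. The other 4 were 10883 bp on chromosome 5 (123584086 to 123594968), 7740 bp on chromosome 9 (110843210 to 110850949), 7503 bp on chromosome 4 (147455326 to 147462828) and 6688 bp on chromosome 17 (35641044 to 35647731). The domains on chromosomes 16, 9 and 17 had no H3K4me3 peak in either untreated fibroblast list. Their widest peak in Utx-KO ESC was 8726, 5240 and 5968 bp. In WT MEF with dox the chromosome 9 domain had a peak of 914 bp and the chromosome 17 domain 2 peaks of up to 2236 bp. In the corresponding Utx-KO list all 3 lacked a peak. None of the 5 met H3K27me3 in any list.

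Domains with UTX were wider than those without (medians 6524.5 and 5811 bp), so their H3K4me3 in Utx-KO ESC was compared within width classes. Between 5000 and 6000 bp a broad Utx-KO peak met 41.3% of 63 domains with UTX and 45.9% of 327 without. Between 6000 and 7000 bp it met 61.0% of 41 and 74.1% of 135, and above that 84.7% of 72 and 88.1% of 126. The intervals overlapped in all 3 classes. The median covered share was lower with UTX in each class, by values of 90.6 against 92.0%, 89.1 against 93.1% and 88.0 against 94.2%. None of these differences was tested. The classes did not fully match width. Domains with UTX had medians of 5412, 6412 and 8633.5 bp in the 3 classes, and those without 5357, 6307 and 7821 bp.

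The fibroblast UTX lists met few domains. No domain met a UTX peak in WT MEF (0 of 764, against 0.111% of all WT ESC H3K4me3 peaks), whose list of 363 peaks is too short to show an absence. With dox 30 domains did (3.93%, interval 2.76 to 5.55; 1.16% of all). In the central 1000 bp the shares were 0.654% of domains and 0.539% of all peaks. Of these 30 domains, 5 also had UTX in WT ESC (16.7%, against 23.0% of all 764 domains). Of the 30 UTX peaks, 1 overlapped an ESC UTX peak. Neither overlap was taken over all WT ESC peaks.

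A set of 92 domains had no H3K4me3 peak in either untreated fibroblast list and is called ES-only here. It was defined with the fibroblast H3K4me3 lists after those had been seen, so UTX, H3K27me3 and the dox and iPS lists are the measures it did not use. UTX in WT ESC met 46 of them (50.0%, interval 40.0 to 60.0), against 10.2% of the 6719 ES-only peaks of any width and 130 of the other 672 domains (19.3%, interval 16.5 to 22.5). The median widths of these groups of domains were close, 5910 and 5972.5 bp.

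The same order held within width classes. Between 5000 and 6000 bp, UTX met 38.3% of 47 ES-only domains and 13.1% of 343 others, and at 6000 bp or more it met 62.2% of 45 and 25.8% of 329. It covered 69.9 bp per kb of ES-only domains and 22.4 bp per kb of the others. In the central 1000 bp the shares were 10.9% and 4.17%. Among ES-only peaks 3000 to 5000 bp wide, UTX met a smaller share (27.6%, interval 23.2 to 32.4), at a density of 56.8 bp per kb and with a central share of 11.9%.

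With dox, H3K4me3 was listed at fewer ES-only domains in the Utx-KO list than in the WT list. In WT MEF with dox a peak met 31 of 92 (33.7%, interval 24.9 to 43.8), against 33.7% of ES-only peaks of any width. In Utx-KO MEF with dox it met 13 (14.1%, interval 8.45 to 22.7), against 20.9%. Peaks were present in both lists at 12 domains, in the WT list alone at 19, in the Utx-KO list alone at 1 and in neither at 60 (65.2%). Among ES-only peaks of any width the numbers in the same order were 1255, 1010, 149 and 4305. Broad dox peaks met 4 ES-only domains in WT and 0 in Utx-KO cells, against 1.77% and 0.774% of ES-only peaks of any width. Counts this small say little about a difference between genotypes. Of the other 672 domains, which had H3K4me3 in untreated fibroblasts by definition, 302 (44.9%) and 365 (54.3%) were broad. Each list is 1 library, and the difference between genotypes was not tested.

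In the pluripotent and iPS lists ES-only domains carried H3K4me3 at most places. A peak met 90 of 92 in Utx-KO ESC (97.8%), 82 (89.1%) in iPS clone 1 and 88 (95.7%) in clone 2. Over ES-only peaks of any width the shares were 69.1%, 59.6% and 79.6%. All of the other 672 domains had a peak in these 3 lists. Broad peaks met 51 ES-only domains in Utx-KO ESC (55.4%), 29 in clone 2 (31.5%) and 1 in clone 1 (1.09%), against 1.65%, 2.01% and 0.0893% of ES-only peaks of any width. For the other domains the broad share was 62.8% in Utx-KO ESC, also 62.8% in clone 2 and 11.5% in clone 1. Among the widest ES-only domains, that on chromosome 6 from 122655745 to 122666891 (11147 bp) had a peak of 11001 bp in Utx-KO ESC and 7745 bp in clone 2. By contrast, the one on chromosome 15 from 25680622 to 25692332 (11711 bp) reached only 4780 and 3059 bp there.

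H3K27me3 in WT MEF met 13 ES-only domains (14.1%, against 9.23% of ES-only peaks of any width), and 16 of the other domains (2.38%). In Utx-KO MEF it met 14 (15.2%, against 8.71%). Any fibroblast H3K27me3 list met 15 ES-only domains (16.3%) and 17.4% of ES-only peaks under 5000 bp. No ES-only domain met H3K27me3 in WT ESC (8.94% of ES-only peaks of any width did) and 1 did in Utx-KO ESC (1.09%, against 27.6%). The remaining ES-only domains had a peak of neither mark in untreated fibroblasts.

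**Figure D5:**
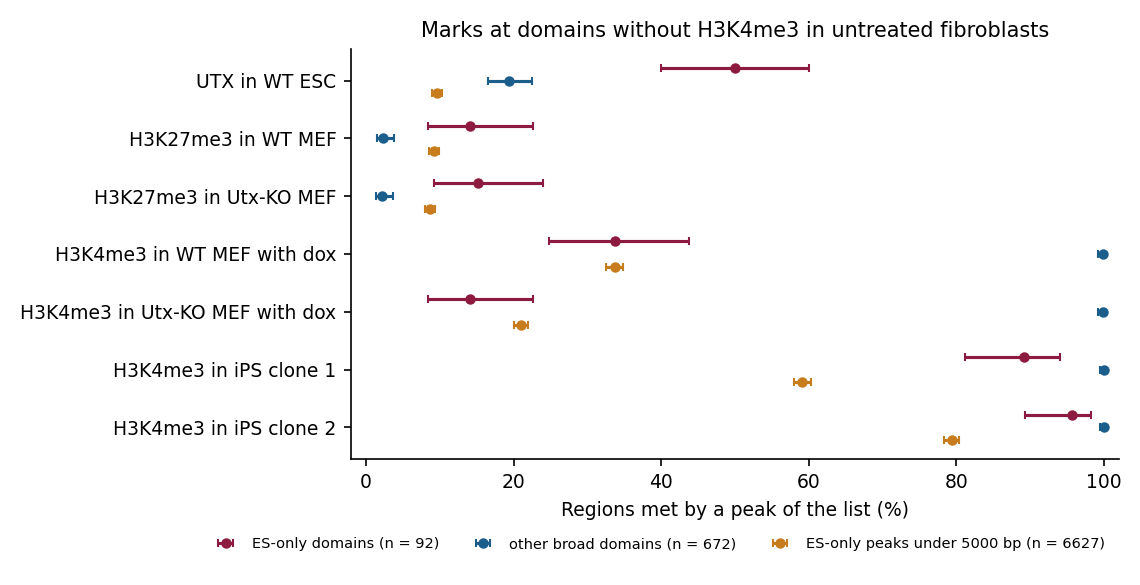
Share of regions (x axis, %; bars, Wilson 95% intervals) met by a peak of each list (rows) for ES-only domains, the other broad domains and ES-only peaks under 5000 bp. UTX in WT ESC met 50.0% of ES-only domains and 19.3% of the others, and H3K4me3 in WT MEF with dox met 33.7% of ES-only domains.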

How the data were processed

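Histone marks and UTX were mapped by ChIP-seq in mouse cells; the 8 whole-cell extract samples were not analysed here. The authors deposited 1 peak list per library in BED form, with a start, an end and a score per peak. The score is the authors' own, per the deposited files, and its scale is not stated there. The build was mm9, per the submitters' processing notes, which also name MACS 1.4.1, Bowtie 0.12.5 and CASAVA 1.8.2, with no roles or settings.

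Overlaps of 1 bp or more were computed with Python 3.11.15, numpy 2.4.6, pandas 2.3.3 and scipy 1.17.1, and figures with matplotlib 3.10.9. The overlap code was tested on simulated data and against bedtools 2.31.1, with equal results for 764 of 764 domains and 19 of 19 lists. Named regions were the 10 widest domains, the 3 on either side of the 5000 bp limit, and up to 5 widest of each class described. Members, classes and lists were chosen with earlier results of these data known. The annotation at hand is of another build, so no gene is named and no sequence is given.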

Additional observations from a re-analysis of the deposited data

Results flagged for a closer look

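Untreated and dox-treated fibroblasts differed in opposite directions between genotypes. The share of domains still broad in Utx-KO minus WT cells was -1.44 percentage points without dox (0.916% and 2.36%) and 7.72 points with dox (47.8% and 40.1%). The share broken up was 11.6 points higher in Utx-KO MEF without dox (65.1% and 53.4%), and with dox the difference was -2.88 points (3.01% and 5.89%). Each arm is 1 library, so neither difference was tested. Over all WT ESC peaks the broad share was 0.127% in Utx-KO and 0.222% in WT MEF, and 8.57% and 6.74% with dox. The share that met 2 or more peaks was 27.8% in Utx-KO and 17.8% in WT MEF, and 0.201% and 0.619% with dox. The differences between genotypes thus had the same directions over all WT ESC peaks and were not particular to the broad domains. With the 764 widest peaks of each list called broad, the shares were 22.5% in WT and 18.8% in Utx-KO MEF, and 30.4% and 31.5% with dox.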

How the results depend on the processing

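Of 61 values under other settings, 32 stayed within the interval or 1 SD of the reported value and 29 did not. The cause was not tested except where the setting itself changes the regions compared. The 32 do not measure stability, because some could not have moved. With 2 clones, leaving out either clone always gives a value within 1 SD of their mean (34.6% ± 34.5). The WT ESC H3K27me3 list cut to its own number of peaks is the same list. A score of at least 100 left the share still broad unchanged in Utx-KO ESC and all fibroblast lists. With domains of at least 7000 bp, the share still broad was 86.9% in Utx-KO ESC and, with dox, 48.0% in WT and 52.0% in Utx-KO fibroblasts, the share broken up was 37.4% in Utx-KO ESC and 59.1% in WT MEF, H3K27me3 met 0% in WT ESC, 2.02% in Utx-KO ESC and 6.06% in WT MEF, and UTX met 36.4%; of ES-only domains, 72% had UTX and 44% had H3K4me3 in WT MEF with dox. With the widest peaks of each list, as many as there are domains, called broad, the shares were 72.4% in Utx-KO ESC, 22.5% (WT) and 18.8% (Utx-KO) in untreated fibroblasts, and 30.4% (WT) and 31.5% (Utx-KO) in those with dox. Breakup in Utx-KO ESC was 19.4% where the overlap had to reach 50% of the shorter of domain and piece, 15.3% with a score of at least 100 and 6.41% after joining gaps under 500 bp; in WT MEF the last settings gave 44.6% and 15.7%. At a score of at least 100, H3K27me3 met 0.131% of domains in WT ESC, against 2.46% of all WT ESC H3K4me3 peaks. UTX met 9.29% of domains, against 2.25% of all peaks, and 30.4% of ES-only domains. Over the central 1000 bp, H3K27me3 met 0.262% in WT ESC, 1.57% in Utx-KO ESC and 1.96% in WT MEF, and UTX 4.97%; as many top-scoring Utx-KO ESC H3K27me3 peaks as the WT list holds met 1.57%. Leaving out either iPS clone gave a broad share of 10.2% to 59.0%. The alternatives for ES-only domains were chosen after seeing the data and were not applied to ES-only peaks of any width. No paired analysis was possible because only the iPS clones carry numbers and every other state has 1 library. Read depth is unknown, so a region without a peak is only one where no peak was listed.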

Other observations

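A further 15 WT ESC H3K4me3 peaks of at least 5000 bp lay outside chromosomes 1 to 19, all on the X chromosome. In Utx-KO ESC all 15 met a peak and 8 a broad one. In WT MEF 11 met a peak and 0 a broad one, and in Utx-KO MEF 10 and 0. With dox, 13 met a peak and 4 a broad one in WT MEF, and 12 and 6 in Utx-KO MEF. Clone 1 and clone 2 each met 14, with 0 and 5 broad. H3K27me3 met none in either ESC list or in WT MEF, 2 in Utx-KO MEF and 1 in Utx-KO MEF with dox, and UTX in WT ESC met 1. On the X chromosome the H3K27me3 lists held 16 peaks in WT ESC, 303 in Utx-KO ESC and 35 in WT MEF. They held 330 in Utx-KO MEF and 54 in Utx-KO MEF with dox, and the WT ESC UTX list held 47. The WT ESC and WT MEF lists are too short to show an absence, and no share over all X chromosome peaks was taken.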
